A study of Mus musculus with 4 samples.

Results

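The 10 genes described here encode surface proteins that dampen T cell activation: Havcr2 (TIM-3), Lag3, Tigit, Pdcd1 (PD-1), Ctla4, Btla, Cd160, Cd244 (2B4), Cd200 and Cd5. They were chosen by name from a table of 21937 gene symbols, with earlier results of these data known. Their shares of calls below are therefore a description and not a test. All 10 were in the table, and 9 of them had a mean of at least 2 CPM (reads scaled to a common library size) over the 4 libraries, as 9926 genes of the table did. Cd244 was the exception.

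Coinhibitory receptors are the brakes of the T cell response. Many of them appear on the cell surface after antigen recognition, bind ligands on other cells, and recruit phosphatases or compete with costimulatory receptors for a shared ligand. In chronically stimulated, regulatory and some helper T cells several are expressed together, and antibodies against CTLA-4, PD-1 and LAG-3 are used in cancer therapy.

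RNA was sequenced from splenic CD4+ T cells of B6 mice aged 6 weeks, all stimulated with PMA, a phorbol ester, and ionomycin, a calcium ionophore, which together bypass the T cell receptor. There was 1 library of each genotype: one labelled DKO (Itch and WWP2), one Itch KO (Itchf/f Cd4cre, a floxed allele with a Cre whose Cd4 promoter is active in T cells), one WWP2 KO (WWP2-/-), and one wild type. Itch and WWP2 are NEDD4-type E3 ubiquitin ligases, and the question was their role when CD4+ T cells are activated. No unstimulated library was analysed here. The sources used here do not state the number of mice per library or the duration of stimulation.

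The libraries held 17130747 to 17990392 counted reads, so depth limited them alike. Wwp2 had 1135, 1332, 4 and 1363 reads in the library labelled double KO, Itch KO, WWP2 KO and wild type. The Wwp2 reads go against the label of the first, so it is named below by its label, as the library labelled double KO, and its differences belong to that library and not to a known genotype. Itch had between 1914 and 2389 reads in every library, and a count over the whole gene cannot check a deletion of part of it. The 8 T cell markers summed to 2497, 1929.7, 1789 and 1816 CPM in the library labelled double KO, Itch KO, WWP2 KO and wild type. Markers of other cells were lower. The sums ranged from 1.35 to 3.40 CPM for 6 B cell genes, from 4.09 to 10.3 CPM for 6 NK cell genes and from 0.292 to 3.40 CPM for 8 myeloid genes. They ranged from 6.53 to 15.9 CPM for the CD8 genes Cd8a and Cd8b1 and from 5.43 to 28.9 CPM for 8 granulocyte and mast cell genes. Of the granulocyte and mast cell reads Kit gave 85 of 101, 188 of 189, 493 of 496 and 429 of 431 in the library labelled double KO, Itch KO, WWP2 KO and wild type, and the basophil gene Mcpt8 gave 12, 0, 2 and 0. The number of markers at 0 reads in a library was 1 or 2 of 6 for B cells, 1 or 2 of 6 for NK cells, 3 to 5 of 8 for myeloid cells and 3 to 6 of 8 for granulocytes and mast cells. Pax5, Klra8, Fcgr1, Fcer1a, Ms4a2 and S100a8 were at 0 in all 4.

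Each genotype had 1 library, so replicate spread could not be measured and no p-value is given. Folds carry exact conditional binomial 95% intervals in parentheses, and levels in the plots carry exact Poisson 95% intervals. Both cover counting error only. The 2-fold rule called a gene higher or lower where the size of its log2 ratio (prior count 2) was 1 or more, its mean was 2 CPM or more and the interval of its fold excluded 1. Such a call compares 2 libraries. The 3 comparisons with wild type share 1 wild-type library.

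In the library labelled double KO, Havcr2, Lag3, Tigit and Ctla4 were called higher than in wild type, and Btla, Cd200 and Cd5 were called lower. That is 4 of the 9 members above the minimum higher, where 12.3% of all genes tested were, and 3 lower, where 6.34% were. In Itch KO, Havcr2, Lag3, Tigit and Cd160 were called higher (4 of 9, against 4.89% of all genes tested) and 0 were lower (against 0.846%). In WWP2 KO 0 members were called in either direction, against 0.282% of all genes called higher and 0.161% called lower. The median log2 ratio of the 9 members was 0.12 in the library labelled double KO, 0.84 in Itch KO and -0.01 in WWP2 KO, each against wild type; over all genes tested the medians were -0.03, -0.02 and -0.01. Cd160 reached the minimum of 2 CPM only through the Itch KO and WWP2 KO libraries, so it had to differ somewhere.

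**Figure D1:**
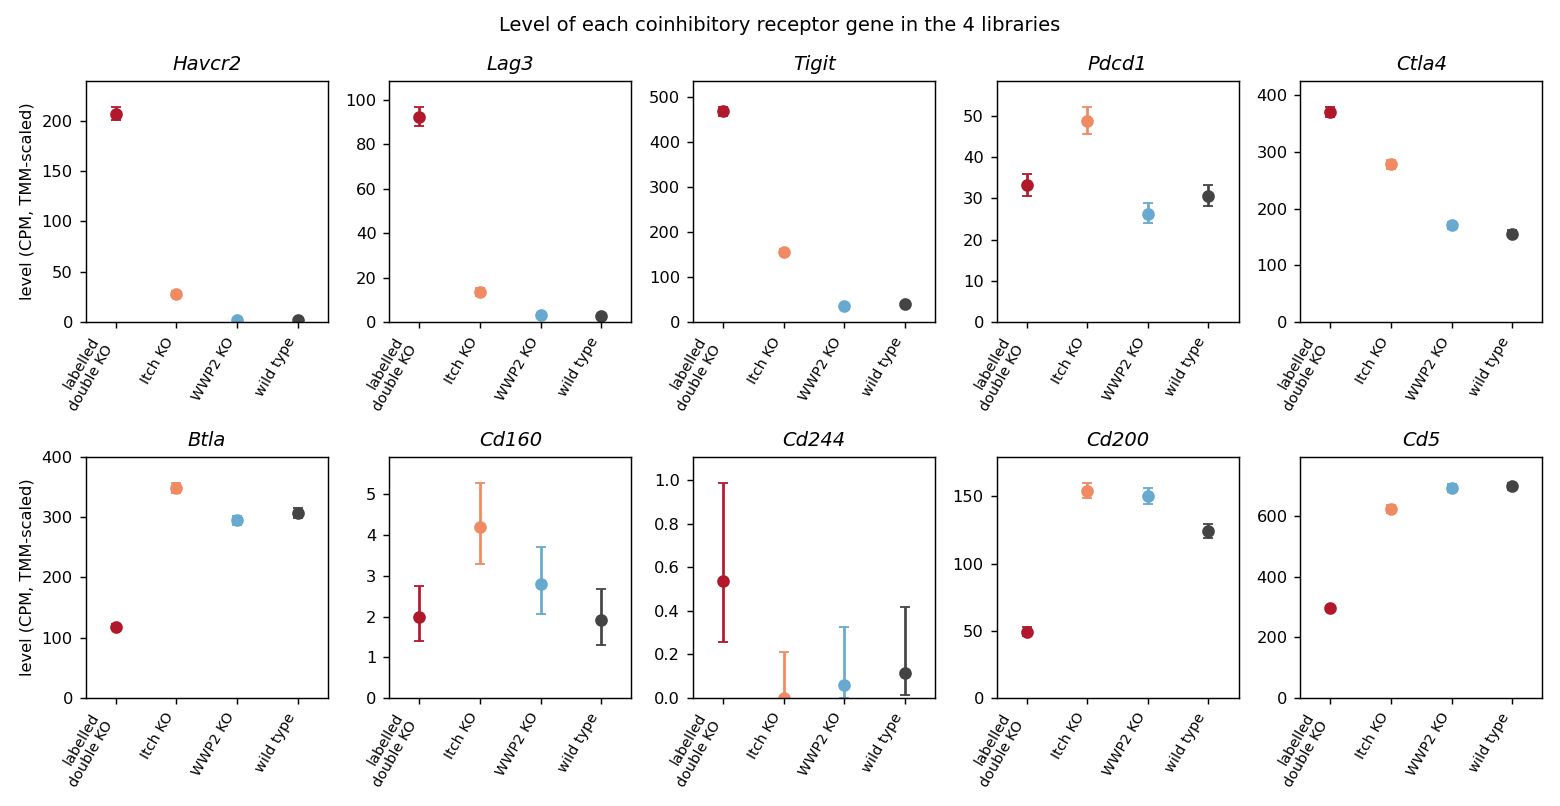
Level of each of the 10 genes (vertical axes, TMM-scaled CPM from 0, a scale of its own for each gene) in the library labelled double KO, Itch KO, WWP2 KO and wild type. Points are single libraries and bars exact Poisson 95% counting intervals. Havcr2, Lag3, Tigit and Ctla4 are highest in the library labelled double KO, while Btla, Cd200 and Cd5 are lowest there.

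The sequences around the annotated starts of Havcr2 and Tigit, 2 of the 3 members with the highest ratios to wild type, and of the neighbours Btla and Cd200, low in the library labelled double KO, are shown with matches to 3 short motifs. AP-1 and NFAT are the factors that PMA and ionomycin activate, and GATA3 is in the list of regulators described further on. Each runs 5′ to 3′ on the gene's strand from 250 bases before the start to 50 after it (RefSeq, GRCm38.p6). Capitals mark matches on either strand to the searched letters. The AP-1 motif was searched as TGANTCA. For NFAT the core letters were GGAAA, which are short and common. The GATA motif was searched as AGATAA, and no motif letters overlapped another match in the windows shown.
Havcr2, chr11:46454681-46454980, plus strand: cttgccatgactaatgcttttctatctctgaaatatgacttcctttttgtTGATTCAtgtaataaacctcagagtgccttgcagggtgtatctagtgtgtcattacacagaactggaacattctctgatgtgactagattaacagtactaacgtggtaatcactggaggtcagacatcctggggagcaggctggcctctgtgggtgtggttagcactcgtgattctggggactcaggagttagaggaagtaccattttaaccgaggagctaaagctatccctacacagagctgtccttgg
Tigit, chr16:43664135-43664434, minus strand: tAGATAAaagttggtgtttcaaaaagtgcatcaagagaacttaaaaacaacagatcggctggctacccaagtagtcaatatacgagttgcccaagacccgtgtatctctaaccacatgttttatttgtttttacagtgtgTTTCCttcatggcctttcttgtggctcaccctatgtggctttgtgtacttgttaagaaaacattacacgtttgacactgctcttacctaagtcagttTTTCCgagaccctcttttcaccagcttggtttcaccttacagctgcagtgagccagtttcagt
Btla, chr16:45224087-45224386, plus strand: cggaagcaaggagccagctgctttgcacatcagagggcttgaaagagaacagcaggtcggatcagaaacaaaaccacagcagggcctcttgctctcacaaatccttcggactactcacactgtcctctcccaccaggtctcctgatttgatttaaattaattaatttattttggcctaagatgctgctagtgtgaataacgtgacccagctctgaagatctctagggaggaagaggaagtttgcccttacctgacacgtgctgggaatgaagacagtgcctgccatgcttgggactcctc
Cd200, chr16:45409004-45409303, minus strand: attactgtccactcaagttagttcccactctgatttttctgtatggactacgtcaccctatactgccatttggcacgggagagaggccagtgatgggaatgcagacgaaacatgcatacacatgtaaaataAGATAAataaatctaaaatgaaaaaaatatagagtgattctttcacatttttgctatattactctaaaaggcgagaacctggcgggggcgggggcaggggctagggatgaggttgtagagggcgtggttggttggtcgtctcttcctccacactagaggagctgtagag

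The Havcr2 window held 1 AP-1 match, 200 bases before the start, and the Tigit window held 2 NFAT core matches and 1 GATA match. The Btla window held 0 matches and the Cd200 window 1 GATA match. Of the members 9 matched the table, with 10 windows (Cd160 has 2). Lag3 had no entry in it, so it is neither shown nor counted. The AP-1 letters occurred in 2 of these 10 (Havcr2 and Cd244), the NFAT core in 6 and GATA in 2, against 7.81%, 61.3% and 11.2% of all 32851 windows. A match describes letters and not a bound site.

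Havcr2 encodes TIM-3, a receptor of exhausted and type 1 helper T cells and of myeloid cells that binds galectin-9 and CEACAM1. It had 3850, 486, 38 and 45 reads in the library labelled double KO, Itch KO, WWP2 KO and wild type, or 207, 28.0, 2.22 and 2.60 CPM. The first 2 libraries stood apart from each other and from the rest, and the counting intervals of WWP2 KO and wild type overlapped. The level was 79.8-fold that of wild type in the library labelled double KO (59.5 to 110) and 10.8-fold in Itch KO (7.95 to 15.0). In WWP2 KO it was 0.854-fold (0.540 to 1.35). Ranked by log2 ratio to wild type among the 9926 genes tested, Havcr2 was 27th from the top in the library labelled double KO and 21st in Itch KO. Myeloid cells also express Havcr2, and the summed myeloid markers were 2.74, 3.40, 0.292 and 1.44 CPM in the same order. Of that sum Itgax, which activated T cells can express too, gave 38, 27, 2 and 12 reads and Siglech 0, 26, 2 and 9. Of the other 6 genes, Lyz2 had 5, 5, 0 and 1 reads, Cd14 3, 0, 0 and 1, Emr1 3, 0, 1 and 2, and Csf1r 2, 0, 0 and 0, each highest or joint highest in the library labelled double KO, as Havcr2 was. Mrc1 had 1 read, in Itch KO, and Fcgr1 had 0 in all 4 libraries. The part of such cells in the Havcr2 counts was not tested.

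Lag3 encodes a CD4-related receptor that binds MHC class II. It had 1716, 234, 57 and 49 reads in the library labelled double KO, Itch KO, WWP2 KO and wild type, or 92.3, 13.5, 3.32 and 2.83 CPM. The order of the libraries was that of Havcr2 at the top, and again WWP2 KO and wild type did not differ beyond counting error. The fold over wild type was 32.7 in the library labelled double KO (24.6 to 44.3), 4.77 in Itch KO (3.50 to 6.64) and 1.18 in WWP2 KO (0.789 to 1.76).

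Tigit encodes a receptor that binds CD155 (encoded by Pvr) and competes there with the costimulatory receptor CD226. It had 8719, 2721, 611 and 715 reads in the library labelled double KO, Itch KO, WWP2 KO and wild type, or 469, 157, 35.6 and 41.2 CPM. Per exon length its level in wild type was 44.9 RPKM (CPM per kilobase of exon), where Lag3 was at 1.41 and Havcr2 at 0.954 RPKM. The fold over wild type was 11.4 in the library labelled double KO (10.5 to 12.3) and 3.80 in Itch KO (3.50 to 4.14). In WWP2 KO it was 0.864 (0.774 to 0.964), an interval that excluded 1 without nearing the 2-fold rule. In the GRCm38.p6 gene table the span of Tigit overlaps that of Zbtb20, whose own count was at most 74 reads in any library.

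Ctla4 encodes the receptor that outcompetes CD28 for CD80 and CD86 and is abundant in regulatory T cells. Its reads numbered 6877, 4825, 2920 and 2696 in the library labelled double KO, Itch KO, WWP2 KO and wild type, or 370.0, 278, 170.3 and 155 CPM. It followed the order of Lag3 with smaller ratios. The fold over wild type was 2.38 in the library labelled double KO (2.28 to 2.49), past the rule. In Itch KO it was 1.79 (1.71 to 1.88) and in WWP2 KO 1.10 (1.04 to 1.15), both short of it.

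Pdcd1 encodes PD-1, the receptor for PD-L1 and PD-L2, and it was not among the called genes in any comparison. It had 617, 845, 451 and 530 reads in the library labelled double KO, Itch KO, WWP2 KO and wild type, or 33.2, 48.7, 26.3 and 30.6 CPM. The highest level was in Itch KO, 1.59-fold wild type (1.43 to 1.78), and the library labelled double KO was at 1.09-fold (0.965 to 1.22). Pdcd1 thus stood apart from Havcr2, Lag3 and Tigit, whose highest level was in the library labelled double KO.

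Btla encodes a receptor for HVEM (Tnfrsf14) found on resting T and B cells. It had 2188, 6049, 5052 and 5330 reads in the library labelled double KO, Itch KO, WWP2 KO and wild type, or 118, 349, 295 and 307 CPM. The library labelled double KO was the low one, 2.61-fold under wild type (2.48 to 2.75). Itch KO was at 1.13-fold (1.09 to 1.18) and WWP2 KO at 0.959-fold (0.922 to 0.996).

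Cd200 encodes the ligand of the inhibitory receptor CD200R. Its reads were 915, 2676, 2574 and 2157 in the library labelled double KO, Itch KO, WWP2 KO and wild type, or 49.2, 154, 150.1 and 124 CPM. It was 2.53-fold lower than wild type in the library labelled double KO (2.34 to 2.73). The single knockouts lay slightly above wild type, Itch KO at 1.24-fold (1.17 to 1.31) and WWP2 KO at 1.21-fold (1.14 to 1.28).

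Cd5 encodes a scavenger receptor family protein that tunes T cell receptor signalling and had the highest level per exon length of the members in wild type. It had 5484, 10798, 11863 and 12091 reads in the library labelled double KO, Itch KO, WWP2 KO and wild type, or 295, 623, 692 and 697 CPM. The library labelled double KO was 2.36-fold under wild type (2.29 to 2.44), Itch KO was at 0.893-fold (0.870 to 0.916), and WWP2 KO was at 0.992-fold (0.967 to 1.02).

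Cd160, a receptor of cytotoxic cells that shares the ligand HVEM with BTLA, had few reads. There were 37, 73, 48 and 33 reads in the library labelled double KO, Itch KO, WWP2 KO and wild type, or 1.99, 4.21, 2.80 and 1.90 CPM. Itch KO was 2.21-fold above wild type (1.45 to 3.44), and the library labelled double KO was at 1.05-fold (0.636 to 1.73). The CD8 T cell markers Cd8a and Cd8b1 were also highest in Itch KO, at 7.05, 15.9, 6.53 and 7.44 summed CPM in the same order. Almost all of that sum was Cd8b1 (Cd8a had 2, 9, 4 and 2 reads). In WWP2 KO Cd160 was at 1.47-fold wild type (0.925 to 2.37), while the CD8 sum was slightly under wild type. The summed NK cell markers were 4.09, 8.13, 7.47 and 10.3 CPM. The part of either cell type in the Cd160 counts was not tested. Cd244, a receptor of NK cells and memory CD8 T cells, had 10, 0, 1 and 2 reads; 3 of the 4 libraries were below 3 reads (0.161 to 0.175 CPM), and no fold is given. In bulk RNA, fewer cells expressing a gene and less of its RNA per cell cannot be told apart.

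**Figure D2:**
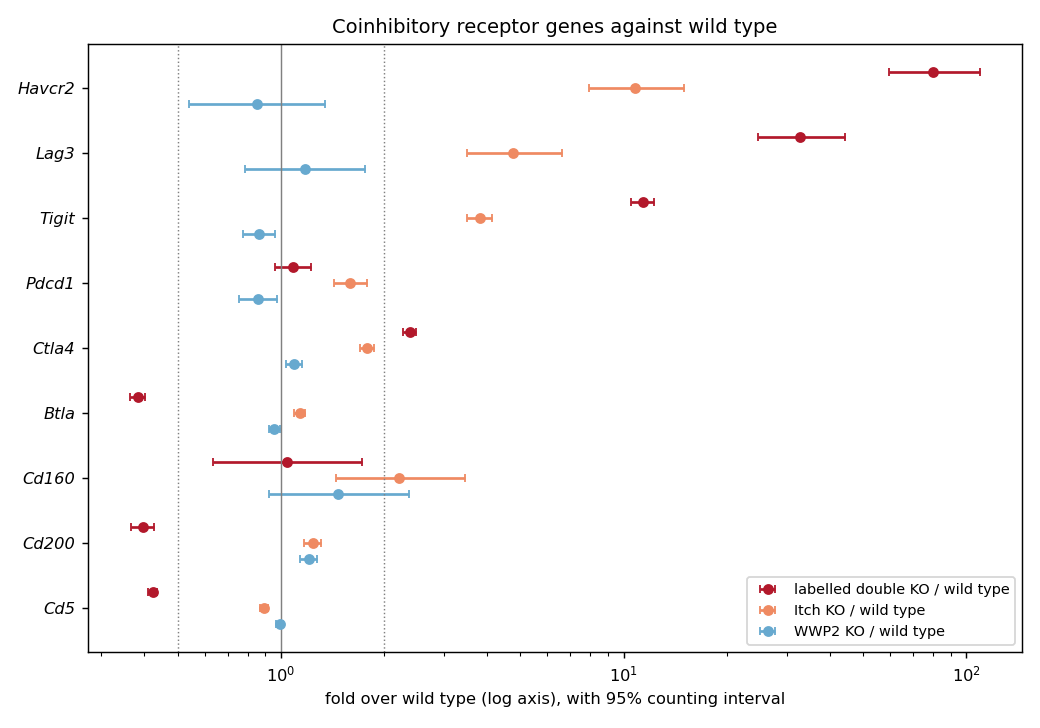
Fold over wild type (horizontal log axis) of the 9 genes with a mean of at least 2 CPM, in the library labelled double KO, Itch KO and WWP2 KO. Bars are 95% counting intervals, the solid line marks a fold of 1 and the dotted lines folds of 2 and 0.5. Havcr2, Lag3 and Tigit lie right of 2 in the first 2 libraries, and Btla, Cd200 and Cd5 left of 0.5 in the library labelled double KO only.

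**Figure D3:**
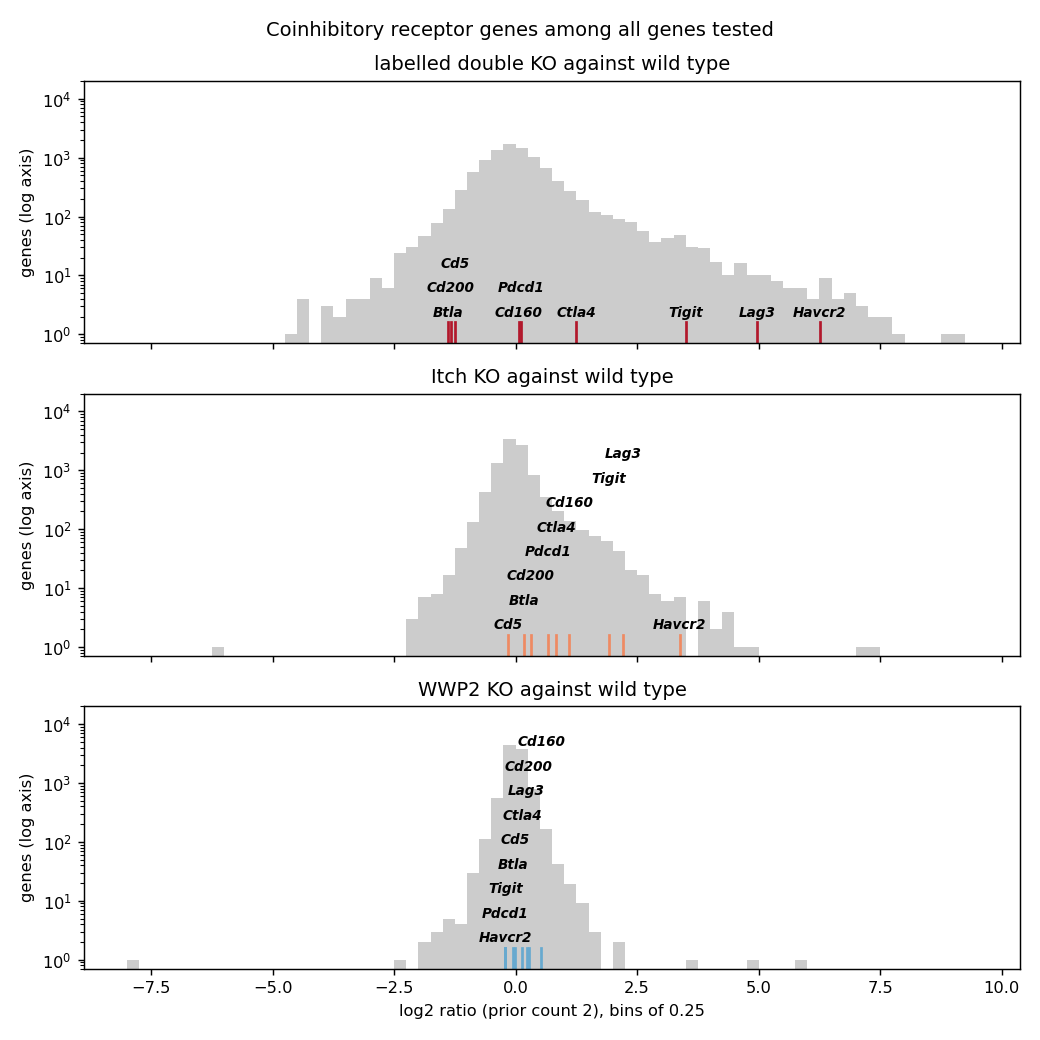
Distribution of log2 ratios to wild type over all 9926 genes tested (grey bars, number of genes on a log axis) with the 9 members marked by ticks, for the library labelled double KO, Itch KO and WWP2 KO. In WWP2 KO the members lie between -0.22 and 0.53, while those of the library labelled double KO spread from -1.38 to 6.26.

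Members were then compared between the other pairs of libraries. Against Itch KO, the library labelled double KO had Havcr2, Lag3 and Tigit called higher (3 of 9, against 9.18% of all genes tested). Havcr2 was 7.39-fold higher there (6.73 to 8.14), Lag3 6.84-fold (5.97 to 7.88) and Tigit 2.99-fold (2.86 to 3.12). Ctla4 was at 1.33-fold (1.28 to 1.38), short of the rule. Btla, Cd160, Cd200 and Cd5 were called lower (4 of 9, against 5.16%), Cd200 by the most, 3.13-fold (2.91 to 3.38), and then Btla, 2.96-fold (2.82 to 3.11). Pdcd1 was at 0.681-fold (0.613 to 0.757).

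Against WWP2 KO, the library labelled double KO had the same calls as against wild type: Havcr2, Lag3, Tigit and Ctla4 higher (4 of 9, against 11.6%) and Btla, Cd200 and Cd5 lower (3 of 9, against 6.05%). Havcr2 was 93.5-fold higher (68.0 to 132). Between the single knockouts, Itch KO had Havcr2, Lag3 and Tigit called higher than WWP2 KO (3 of 9, against 4.62%) and 0 lower (against 1.15%), with Havcr2 at 12.6-fold (9.08 to 18.1).

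To set genes beside each other, levels were also divided by exon length (union of annotated exons, GRCm38) and given as RPKM. The library labelled double KO had Tigit first at 510.5 RPKM, then Ctla4 at 191, Cd5 at 94.4, Havcr2 at 76.1, Lag3 at 46.1 and Btla at 36.2 RPKM. Itch KO had Cd5 at 199 and Tigit at 171 RPKM, then Ctla4 at 144 and Btla at 107 RPKM. In wild type the order was Cd5 at 223 RPKM, Btla at 94.5, Ctla4 at 80.4, Cd200 at 53.0, Tigit at 44.9 and Pdcd1 at 15.8 RPKM. Lag3, Havcr2 and Cd160 followed at 1.41, 0.954 and 0.720 RPKM, and Cd244, with 2 reads, was last at 0.0307 RPKM. WWP2 KO had the same first 6 genes in the same order. The 10 genes summed to 994, 731, 520.1 and 515 RPKM in the library labelled double KO, Itch KO, WWP2 KO and wild type. Tigit made up 51.4%, 23.4%, 7.46% and 8.71% of that sum in the library labelled double KO, Itch KO, WWP2 KO and wild type. Cd5 made up 9.50%, 27.3%, 42.6% and 43.3% in the same order.

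**Figure D4:**
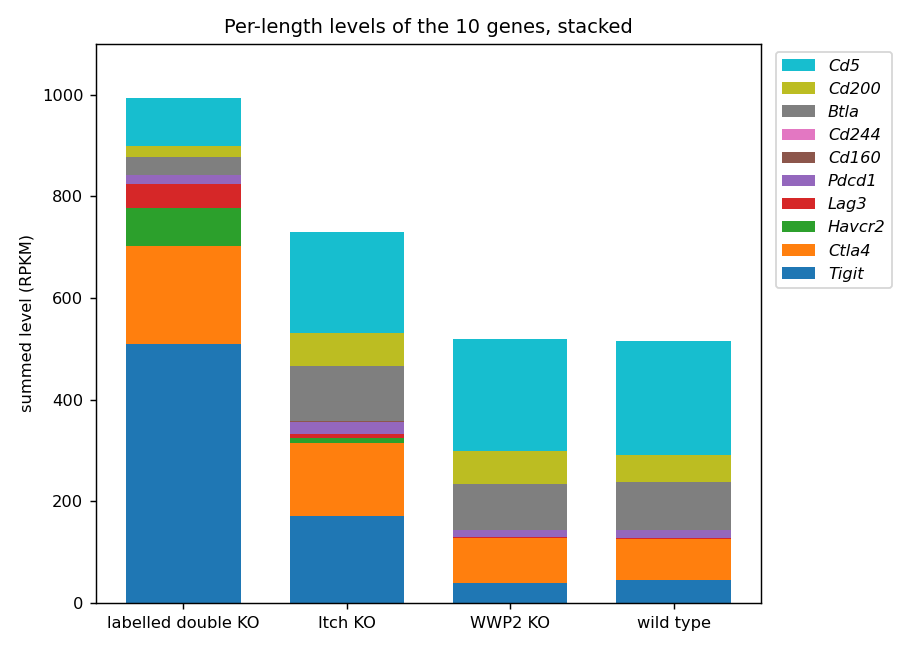
Per-length levels (RPKM, linear axis from 0) of the 10 genes stacked in the library labelled double KO, Itch KO, WWP2 KO and wild type. Tigit takes 51.4% of the sum in the library labelled double KO and 8.71% in wild type.

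Receptors that compete for a ligand were set against each other within each library, a ratio of reads that needs no scaling. CTLA-4 and CD28 share CD80 and CD86. There were 1.58, 1.28, 0.547 and 0.497 Ctla4 reads per Cd28 read in the library labelled double KO, Itch KO, WWP2 KO and wild type. Relative to wild type the ratio was 3.18-fold in the library labelled double KO (2.99 to 3.38), 2.58-fold in Itch KO (2.42 to 2.75) and 1.10-fold in WWP2 KO (1.03 to 1.17). TIGIT and CD226 share CD155. There were 62.3, 4.77, 1.65 and 1.72 Tigit reads per Cd226 read in the library labelled double KO, Itch KO, WWP2 KO and wild type. That is 36.2-fold the wild-type ratio in the library labelled double KO (29.4 to 44.8) and 2.77-fold in Itch KO (2.38 to 3.23). Cd226 itself had 140 reads in the library labelled double KO and 571 in Itch KO, against 416 in wild type.

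Several members have relatives as chromosomal neighbours. In the GRCm38.p6 gene order Ctla4 lies between Cd28 and Icos, all of the CD28 family. Icos, a costimulatory receptor, had 39346, 18934, 8003 and 8425 reads in the library labelled double KO, Itch KO, WWP2 KO and wild type, with log2 ratios to wild type of 2.12, 1.17 and -0.06 in the first 3. Cd28 had ratios of -0.42, -0.53 and -0.01, so the neighbours of Ctla4 on either side did not follow one direction. Lag3 lies between Cd4 and Ptms. Cd4 was called higher in the library labelled double KO, with a log2 ratio of 1.11, and was at 0.07 in Itch KO. Ptms, a prothymosin relative, was called higher in both, at 1.79 and 1.15. The Lag3 to Cd4 read ratio was 15.1-fold that of wild type in the library labelled double KO (11.3 to 20.5) and 4.56-fold in Itch KO (3.33 to 6.36). Btla and Cd200, whose start windows are printed beside that of Havcr2, are direct neighbours, and both were low in the library labelled double KO. On its other side Btla adjoins the autophagy gene Atg3, at a log2 ratio of -0.12. Cd5 lies between Vps37c, at -0.10, and its relative Cd6, at -0.91 in the library labelled double KO. Cd6 had 7013 reads there and 12291 in wild type, short of the 2-fold rule.

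The genes around the receptors were grouped into 5 lists. Of 18 ligand genes 14 were above the minimum. In the library labelled double KO 5 were called higher and 1 lower (12.3% and 6.34% of all genes tested), in Itch KO 4 and 0 (4.89% and 0.846%), and in WWP2 KO 0 and 0 (0.282% and 0.161%). Their median log2 ratios were 0.07, 0.30 and 0.01, against -0.03, -0.02 and -0.01 over all genes tested. Lgals3, a galectin that binds LAG-3, had 3430, 234, 45 and 31 reads in the library labelled double KO, Itch KO, WWP2 KO and wild type, 103-fold wild type in the first (72.6 to 152). Cd200r1, the receptor for CD200, was at 3.73-fold wild type (3.08 to 4.55) in the library labelled double KO, where Cd200 itself was lower. Cd86 was 3.47-fold lower there (2.67 to 4.55). Cd274, the gene of PD-L1, and Tnfrsf14, the gene of HVEM, had log2 ratios of -0.89 and -0.88 in that library, short of the rule.

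The MHC class II genes H2-Aa, H2-Ab1 and H2-Eb1, which encode the ligand of LAG-3, were called higher in the library labelled double KO and in Itch KO. They reached the minimum of 2 CPM only through those 2 libraries (wild type was at 1.38, 1.04 and 1.73 CPM and WWP2 KO at 1.34, 1.17 and 0.817 CPM), so they had to differ, and they are 3 of the 5 and 3 of the 4 higher ligand genes. H2-Aa had 81, 207, 23 and 24 reads in the library labelled double KO, Itch KO, WWP2 KO and wild type. B cells, dendritic cells and macrophages are their usual source, and the summed B cell markers were 1.35, 3.40, 2.51 and 2.42 CPM in the same order. The summed myeloid and dendritic cell markers were 2.74, 3.40, 0.292 and 1.44 CPM. In that list Itgax had 38, 27, 2 and 12 reads and Siglech 0, 26, 2 and 9. Set against wild type, Itgax was higher in both libraries as H2-Aa was, while Siglech was higher in Itch KO and lower in the library labelled double KO. The part of such cells in the class II counts was not tested.

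Of 13 costimulatory receptor genes, 3 were called higher and 2 lower in the library labelled double KO (median -0.40), where 12.3% and 6.34% of all genes tested were. In Itch KO 3 and 0 were (median 0.45), against 4.89% and 0.846% of all genes. In WWP2 KO 0 were called in either direction (median -0.06), against 0.282% and 0.161%. Icos, Tnfrsf9 (4-1BB) and Tnfrsf4 (OX40) were the 3 higher genes both in the library labelled double KO and in Itch KO. Icos was 4.36-fold wild type in the library labelled double KO (4.26 to 4.46) and 2.25-fold in Itch KO (2.19 to 2.31). Lower in the library labelled double KO were Cd226, 3.19-fold (2.62 to 3.89), and Cd40lg, the gene of the B cell helper protein CD40 ligand, 2.41-fold (2.29 to 2.55).

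A further list held 18 inhibitory receptors, ectoenzymes and related surface proteins, 17 of them in the table and 13 above the minimum. The library labelled double KO had 4 called higher and 3 lower (median 0.22), against 12.3% and 6.34% of all genes tested. Itch KO had 3 and 1 (median 0.30), against 4.89% and 0.846%, and WWP2 KO had 0 and 1 (median -0.20), against 0.282% and 0.161%. Entpd1 encodes CD39, which degrades extracellular ATP. It had 2205, 144, 53 and 39 reads in the library labelled double KO, Itch KO, WWP2 KO and wild type, 52.7-fold wild type in the first (38.5 to 74.4) and 3.69-fold in Itch KO (2.58 to 5.40). Lilrb4, an inhibitory receptor gene, was at 6.15-fold wild type (5.49 to 6.92) in the library labelled double KO and at 3.56-fold (3.15 to 4.02) in Itch KO. Klrg1, a receptor of terminally differentiated cells, was at 3.48-fold (2.90 to 4.20) in the library labelled double KO and at 2.15-fold (1.77 to 2.64) in Itch KO, and was the gene called lower in WWP2 KO, at a log2 ratio of -1.02. The lowest in the library labelled double KO were Cd72 (10 reads, against 59 in wild type), Klrd1 (24 reads, against 115) and 4632428N05Rik, an older symbol of the VISTA gene, 2.16-fold lower (2.09 to 2.22). Both Cd72, which is chiefly a B cell gene, and Klrd1 had a mean under 10 CPM, and with that minimum their calls are lost. Cd72 reached the minimum of 2 CPM only through WWP2 KO and wild type, at 2.80 and 3.40 CPM, so it had to differ somewhere. It was at 0.538 CPM in the library labelled double KO and at 1.56 CPM in Itch KO, where it was the gene called lower. Klrd1 is also an NK cell gene, and the summed NK markers were at 4.09 CPM in the library labelled double KO and 10.3 CPM in wild type. Between these libraries Klrb1c (12 reads, against 88), Klrk1 (23, against 63) and Klre1 (4, against 5) were lower. Prf1 (34, against 23) and Ncr1 (3, against 0) were higher, and Klra8 had 0 in both. The part of NK cells in the Klrd1 counts was not tested.

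All 22 genes of phosphatases, kinases and adaptors below the receptors were above the minimum. The library labelled double KO had 4 called higher and 1 lower (median 0.19), not far from the shares over all genes tested, 12.3% and 6.34%. Itch KO had 0 and 1 (median 0.11), against 4.89% and 0.846%, and WWP2 KO had 0 and 0 (median 0.04), against 0.282% and 0.161%. Dok2, an adaptor used by CD200R, was at 6.19-fold wild type (5.65 to 6.78) in the library labelled double KO. Inpp5d, the gene of the lipid phosphatase SHIP-1, was 3.61-fold higher (3.41 to 3.82) and the adaptor gene Grb2 was 2.19-fold higher (2.09 to 2.29). Ptpn6, which encodes SHP-1, was the gene called lower in the library labelled double KO and in Itch KO, with 1196 reads in the library labelled double KO and 1174 in Itch KO, against 2391 in wild type. Its partner Ptpn11, the gene of SHP-2 and not among the genes fixed for naming, was at 2972, 3230, 3155 and 3137 reads in the library labelled double KO, Itch KO, WWP2 KO and wild type. Cblb and Fyn had log2 ratios of -0.64 and -0.61 in the library labelled double KO, short of the rule.

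The last list held 25 genes, mostly transcription factors, that are known to regulate coinhibitory receptor genes. The library labelled double KO had 7 called higher and 5 lower (median 0.12), against 12.3% and 6.34% of all genes tested. Itch KO had 7 and 2 (median 0.53), against 4.89% and 0.846%, and WWP2 KO had 0 and 0 (median 0.09), against 0.282% and 0.161%. Prdm1 encodes BLIMP-1, which together with c-MAF controls a coinhibitory gene module in mouse T cells. It had 3620, 889, 211 and 228 reads in the library labelled double KO, Itch KO, WWP2 KO and wild type, 14.8-fold wild type in the first and 3.90-fold in Itch KO (interval 3.37 to 4.53). Maf was at 10.1-fold wild type (9.15 to 11.1) in the library labelled double KO and at 2.49-fold (2.24 to 2.78) in Itch KO. Gata3, the type 2 helper factor, had 7536 reads in the library labelled double KO and 2814 in Itch KO, against 621 in wild type. Id3, Tcf7 and Bach2, factors of naive and memory cells, were 8.49-fold (7.12 to 10.2), 5.34-fold (5.14 to 5.54) and 5.20-fold (4.89 to 5.53) lower in the library labelled double KO. In Itch KO these 3 genes were at 20.4, 389 and 202 CPM, against 64.0, 935 and 343 CPM in wild type. Id3 and Tcf7 were the 2 regulators called lower there.

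**Figure D5:**
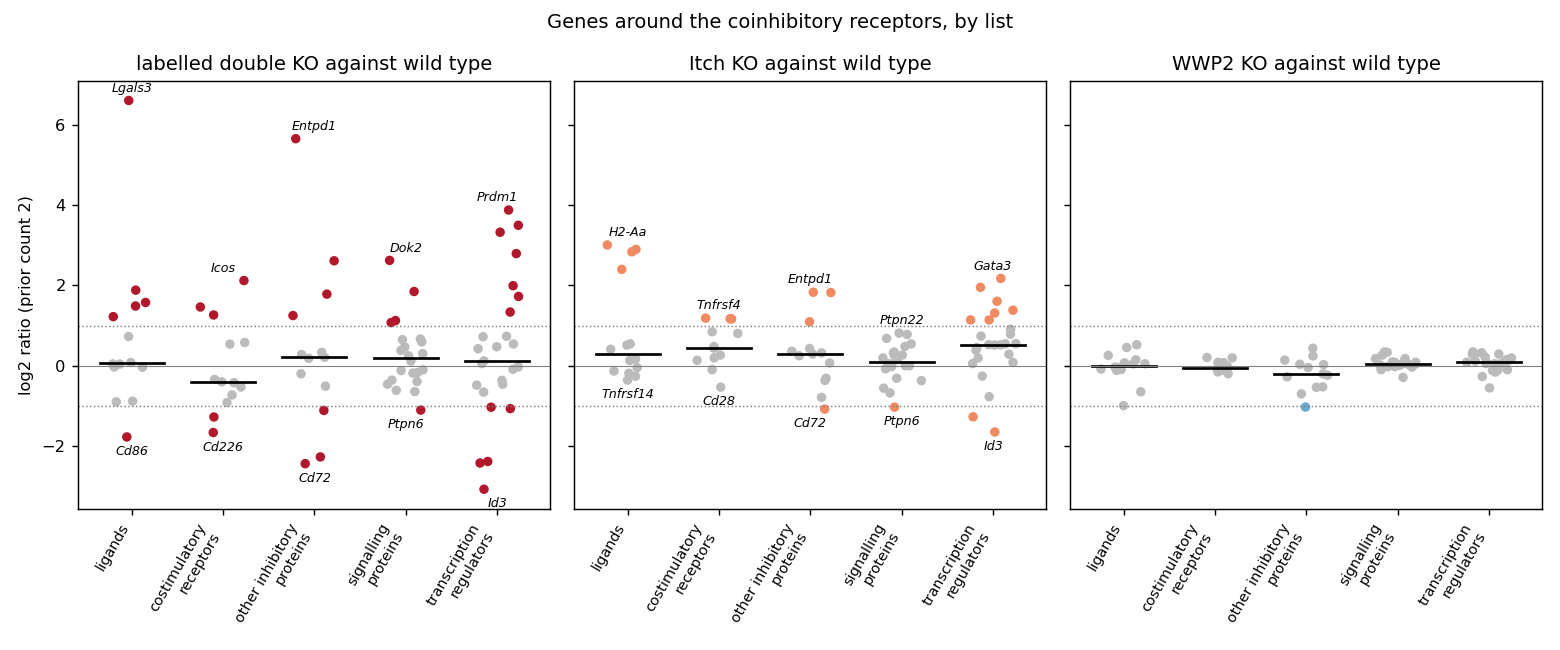
Log2 ratio to wild type (vertical axis) of the genes above the minimum in 5 lists, for the library labelled double KO, Itch KO and WWP2 KO. Coloured points passed the 2-fold rule, grey points did not, black bars are list medians and dotted lines mark -1 and 1. WWP2 KO has 1 coloured point, Klrg1.

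For each member called against wild type, the 3 genes with the most similar pattern were found by Euclidean distance between log2 levels centred on their mean over the 4 libraries, among 8913 named genes. The points share 4 libraries, and a small distance describes these libraries only. Nearest to Havcr2 were Pltp (0.45), Il1rl1 (0.62), the IL-33 receptor gene with 19545, 1785, 266 and 249 reads in the library labelled double KO, Itch KO, WWP2 KO and wild type, and Slc17a6 (0.72). Pltp had 0 reads in WWP2 KO and wild type, so its distance depends on the prior count. Slc17a6 had 10 and 5 reads in them, so its distance depends in part on the prior count too. Nearest to Lag3 were Ptpn13 (0.18), Stom (0.20) and Lama5 (0.28), and nearest to Tigit were Spag5 (0.10), Crip1 (0.10) and Espl1 (0.17). Ctla4 was nearest to Plk3 (0.07), Isg15 (0.07) and Gadd45a (0.08). On the other side, Btla was nearest to Pogk (0.06), Polr1b (0.07) and Cdk5r1 (0.07), Cd200 to Zdhhc14 (0.10), Slc29a2 (0.14) and Prosapip1 (0.17), and Cd5 to Slc25a26 (0.05), Dctd (0.05) and Abhd11 (0.05). Cd160 was nearest to Kcnj15 (0.04), Kif5c (0.16) and Gpr83 (0.19). Pltp, Slc17a6, Stom and Espl1 were under 2 CPM in both WWP2 KO and wild type. They reached that minimum only through the other libraries, so they had to differ somewhere.

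Among the members themselves, Btla and Cd200 were 0.25 apart, Btla and Cd5 0.37, and Cd200 and Cd5 0.45. Lag3 and Tigit were 1.11 apart and Havcr2 and Lag3 1.48. The widest distance was 6.44, between Havcr2 and Cd200.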

How the data were processed

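Reads per gene of 4 RNA sequencing libraries were analysed. The authors deposited raw counts for 21937 gene symbols in 1 table with no normalization, as the values show. The submitters' processing notes name HTSeq 0.7.1, TopHat 1.4.1, Bowtie 1.0.0 and mm9. The sources used here do not state the annotation, strand setting or filters, so reads of overlapping or antisense genes cannot be separated. Groups came from the genotype labels, 1 library each.

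Counts were scaled by TMM factors (0.983 to 1.03) with edgeR 4.0.16 in R 4.3.3. Log2 ratios used a prior count of 2, and folds used none. The 2-fold rule was tested on simulated data. Exon lengths came from GENCODE (GRCm38), used for length only. Alternatives were DESeq2 1.42.0 size factors, upper-quartile factors, total counts, other minimums and a prior count of 0.5. Python 3.11.15 and scipy 1.17.1 gave intervals, which treat reads as independent molecules although none carry molecular identifiers in these tables. Members and lists were chosen with earlier results of these data known. Named genes were the members, Itch, Wwp2, the 3 highest and 3 lowest of each list in the library labelled double KO, chromosomal neighbours and the 3 nearest patterns; others, including second-rank list members, markers and partners, were chosen after their values were seen. One marker gene is not reported here.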

Additional observations from a re-analysis of the deposited data

Results flagged for a closer look

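For 3 genes a label went with opposite directions in different backgrounds, with both counting intervals excluding 1. With 1 library each, the difference between the backgrounds was not tested, and the library labelled double KO held Wwp2 reads, so its WWP2 label is in doubt. Btla had a log2 ratio of -1.32 in the library labelled double KO against WWP2 KO and of 0.18 in Itch KO against wild type. Cd200 had -1.61 and 0.31 in the same comparisons. For the WWP2 label, Cd200 had a log2 ratio of -1.65 in the library labelled double KO against Itch KO and of 0.27 in WWP2 KO against wild type. Tigit had 1.58 and -0.21 in those comparisons. Each of these ratios to wild type lay between the 5th and 95th percentiles of all genes tested. Those percentiles were -0.555 and 0.986 in Itch KO and -0.306 and 0.368 in WWP2 KO.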

How the results depend on the processing

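No paired analysis was possible because each genotype has 1 library, and for the same reason no library could be left out. The 12 counts of members called stayed within 1.5 times their value under all 6 alternatives (72 of 72). Which members were called changed in a few cases: a minimum of 10 CPM removed Cd160 from every call, total-count scaling removed it from the genes lower in the library labelled double KO against Itch KO, and with no minimum Cd244 was called higher in the library labelled double KO against Itch KO and against WWP2 KO. Scaling by total counts shifted log2 ratios of the 9 members above the minimum by at most 0.07, in 6 cases to a value outside the counting interval. A prior count of 0.5 shifted them by at most 0.05. No scaling shifted the median of all genes by over 0.1. For the lists, alternatives added after the data were seen moved 7 of 180 counts. With a minimum of 10 CPM, 2 ligand genes were higher in the library labelled double KO and 1 in Itch KO, since the class II genes dropped out. With that minimum the other inhibitory genes called lower numbered 1 in the library labelled double KO, against 3, and 0 in Itch KO, against 1, since Cd72 and Klrd1 dropped out. Total-count scaling gave 3 lower regulators in the library labelled double KO, against 5. The Klrg1 call in WWP2 KO was lost with total counts, and a prior count of 0.5 added a lower ligand gene there (H2-Eb1). Depth limits Cd160 and Cd244, and Havcr2 and Lag3 in WWP2 KO and wild type.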

Other observations

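Kit, fixed here as a mast cell marker, had 85, 188, 493 and 429 reads in the library labelled double KO, Itch KO, WWP2 KO and wild type, or 4.57, 10.8, 28.8 and 24.7 CPM. Of the other 7 granulocyte and mast cell markers, Fcer1a, Ms4a2 and S100a8 had 0 reads in all 4 libraries, Cpa3 and S100a9 had at most 2 in any, Mcpt8 had 12, 0, 2 and 0 reads and Prss34 had 2, 0, 0 and 0, both highest in the library labelled double KO. Kit was singled out after its values were seen.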
